A study of Mus musculus with 1073 samples.

Results

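Genes of the LIN28 and let-7 circuit of embryonic timing were followed through 13 sorted populations of mouse yolk sac cells: *Lin28a*, *Lin28b*, *Hmga2*, *Igf2bp1*, *Igf2bp2*, *Igf2bp3*, *Arid3a* and *Trim71*. The list was chosen by the mean level of *Lin28a* in endothelium, far lower at E10.5 than at E8.5, so that difference is given here as a description of the choice. All 8 of the 8 listed genes were among the 15967 genes of the filtered count table. Single cells were caught one by one in a microfluidic circuit (Fluidigm C1) and sequenced. Of 1073 captured cells, 926 passed the filter of the authors, with between 483830 and 5943204 counts each.

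Extraembryonic mesoderm came from *Flk1*-GFP/+ embryos, in which GFP is made from the *Flk1* (*Kdr*) locus, and was sorted as GFP+ after trypsin at E7.25 (captures of 73 and 74 cells) and E7.75 (140 cells in 2 captures). All later cells came from C57BL/6 embryos after collagenase/dispase. Haematopoietic progenitor cells (HPC, called erythro-myeloid progenitors in the labels) were TER119- CDH5+ CD41+ at E8.25 (73 cells) and E8.5 (89), and TER119- CDH5- CD45+ CD41low at E9.5 (46) and E10.5 (87), so the gate as well as the stage differed between the earlier and later HPCs. Primitive erythroid cells (EryP) were TER119+ CD41- CDH5- (66 cells at E8.5 and 3 at E10.5, where CD45- was added). Megakaryocytes (Mk) were TER119- CDH5- CD41+ at E8.5 (37) and CD45- CD41high at E10.5 (73), macrophages (Mac) TER119- CDH5- CD41- CD45+ at E10.5 (25), and endothelial cells (Endo) TER119- CD41- CDH5+ at E8.5 (79) and also CD45- at E10.5 (61).

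Every later population was 1 capture, and the embryos behind a cell are not named. Populations were therefore compared as single samples, without a test, and intervals cover counting error over cells or reads only. Of 2 flow cells, the first held the stages E7.25, E8.25 and E8.5 and the second the rest, and stage differences from E8.5 to E10.5 cannot be told apart from the flow cell. Defining markers went with the labels in most gates: the 7 endothelial markers were found in 100% of E8.5 and 98.8% of E10.5 Endo cells on average, the 4 erythroid markers in 100% of EryP cells and the 4 macrophage markers in 98% of Mac cells. The CDH5+ HPCs of E8.25 and E8.5 held the endothelial markers in 83.4% and 81.4% of cells. The 5 progenitor markers were found in 87.1% to 95.2% of HPCs. The 4 macrophage markers were in 4.11% and 12.4% of E8.25 and E8.5 HPCs, and in 46.2% and 48.9% of E9.5 and E10.5 HPCs. The 6 mesoderm markers were in 83.6% of E7.25 and 53.5% of E7.75 *Flk1*-GFP+ cells. At E7.75 the 6 mesenchymal markers (74.8%) and the progenitor markers (65.1%) were found more often. Mac, which shared a lane with E10.5 EryP, held the erythroid markers in 63% of cells at a summed level of 1.89 to 104.3 CPM. E8.5 Mk also held the 4 erythroid markers in 98% of cells on average (summed level 24.9 to 84267 CPM per cell) beside the 5 megakaryocyte markers in 71.9%. The part of erythroid RNA in the Mk and Mac values was not tested.

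The LIN28 proteins are RNA-binding proteins that bind let-7 precursors and hold back the maturation of let-7 microRNAs. LIN28A recruits terminal uridylyl transferases to the precursor. Mature let-7 in turn lowers the mRNAs of the LIN28 proteins and of a set of early-stage genes, so the circuit is classically known as a heterochronic switch between embryonic and later programmes. In blood formation it is best known for separating fetal from adult types of erythroid and lymphoid output. *Hmga2* encodes an architectural chromatin protein, *Igf2bp1* to *Igf2bp3* encode RNA-binding proteins that stabilise and localise mRNAs such as those of insulin-like growth factor 2 and beta-actin, *Arid3a* encodes an AT-rich DNA-binding factor of B lymphoid, erythroid and megakaryocytic cells, and *Trim71* (known as *Lin41* in worms) encodes an RNA-binding protein and E3 ligase of early embryos.

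All 8 genes carried the same let-7 target letters in their annotated 3′ UTRs. The mature let-7 sequences are shown because the seed, bases 2 to 8, in capitals, is what pairs with a target. Of 11 mature let-7 and miR-98 forms in RefSeq (GRCm38.p6), 10 shared the let-7a seed, and let-7j did not.
let-7a: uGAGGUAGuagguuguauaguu
let-7g: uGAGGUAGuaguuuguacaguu
let-7d: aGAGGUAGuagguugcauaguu
miR-98: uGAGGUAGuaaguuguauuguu
let-7j: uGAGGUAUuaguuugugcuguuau

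The long match searched for was CTACCTCA, the reverse complement of the seed followed by A, on the sense strand. It stood in the 3′ UTR of 499 of 12216 protein-coding genes of the filtered table (4.08%) and in 8 of the 8 listed genes. These genes were listed as members of the let-7 circuit, so the count describes the list and is no independent support for it. *Trim71* held 4 matches in 5512 bases and was 1 of 3 genes (0.0246%) with 4 or more. Of 761 other genes of similar UTR length none held as many. *Igf2bp1* held 3, *Lin28a* 2, and the other 5 genes 1 each. For those 5, between 4.05% and 9.41% of genes of similar UTR length held 1 or more. With either 7-letter match (CTACCTC or TACCTCA, which share letters with the long match and were counted once there), *Hmga2* had 7 matches, *Trim71* 6, *Lin28b* 5, *Igf2bp1* 5, *Arid3a* 4, *Lin28a* 2, *Igf2bp2* 2 and *Igf2bp3* 1. Across the 12216 genes 18.4% had such a match and 30 genes had 4 or more.

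The first long match of each gene after its stop codon follows, to place the shared letters in their context, with 9 bases to either side, the match in capitals, read in the sense of the mRNA. All 8 lie in the 3′ UTR, in a single exon, on GRCm38 (GENCODE M21). The *Lin28a* match is at chr4:134005189-134005196 (minus strand), *Lin28b* chr10:45381022-45381029 (minus), *Hmga2* chr10:120364224-120364231 (minus), *Igf2bp1* chr11:95961778-95961785 (minus), *Igf2bp2* chr16:22059473-22059480 (minus), *Igf2bp3* chr6:49086787-49086794 (minus), *Arid3a* chr10:79953910-79953917 (plus) and *Trim71* chr9:114512472-114512479 (minus).
Lin28a: cctgttgaaCTACCTCAtttttgccg
Lin28b: gcgggaagtCTACCTCAtgcaagcac
Hmga2: attcaatttCTACCTCAgcatcagtt
Igf2bp1: cgaagtaaaCTACCTCAaggtgtgaa
Igf2bp2: aaataaaagCTACCTCAggtgttttt
Igf2bp3: tttactcaaCTACCTCAggtattcag
Arid3a: agtttctttCTACCTCAggtcttttg
Trim71: gcctaagtcCTACCTCAgcttaaatt

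A match of letters is a description and was not tested as a site. The let-7 microRNAs themselves are too short for these libraries: the 12 precursor genes had 293 counts in all over the 1073 captured cells, and none was in the filtered table.

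*Lin28a*, on chromosome 4, was a gene of mesoderm and early haemato-endothelial cells. At E7.25 it was found in 100% of cells (exact 95% interval 97.5 to 100), with a lowest level of 2.71, a median of 206 and a highest of 1039 CPM per cell (mean 225 CPM). At E7.75 it was found in 140 of 140 cells, from 0.830 through a median of 259 to 1110 CPM (mean 299 CPM). These 2 mesodermal means stood highest and differed by less than the 1.73-fold gap between the 2 captures of E7.25 (165 and 285 CPM), so their order is within the spread of captures.

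In HPCs *Lin28a* stood lower in the 2 later populations (E9.5 and E10.5) than in the 2 earlier ones. At E8.25, 93.2% of cells (84.7 to 97.7) held it, with a median of 41.2 and a highest of 4513 CPM. That highest cell made 49.4% of the sum, and without it the mean was 64.3 in place of 125.2 CPM. At E8.5, 87.6% of cells (79.0 to 93.7) held it, with a median of 42.6, a highest of 296 and a mean of 53.3 CPM, so that E8.25 and E8.5 HPCs were close in both share and median. At E9.5 the share was 52.2% (36.9 to 67.1), the median 0.492, the highest 63.1 and the mean 7.19 CPM. At E10.5 the share was 33.3% (23.6 to 44.3), the median 0, the highest 132.9 and the mean 10.4 CPM, above the mean at E9.5. At a minimum of 10 counts the shares were 79.5%, 69.7%, 19.6% and 25.3% from E8.25 to E10.5.

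Outside the HPCs, *Lin28a* set the differentiated lineages apart. E8.5 Endo held it in 96.2% of cells (89.3 to 99.2), with a median of 73.9, a highest of 483 and a mean of 101.8 CPM, and E10.5 Endo in 5 of 61 cells (8.20%, 2.72 to 18.1), with a highest of 15.5 and a mean of 0.595 CPM. Another 19 E10.5 Endo cells did not pass the filter of the authors, and 2 of them held 40 counts of *Lin28a*. In E8.5 EryP 1 of 66 cells had it (1.52%, 0.0384 to 8.16), with 3 counts in all. In E8.5 Mk 7 of 37 cells had it (18.9%, 7.96 to 35.2). Their highest cell reached 454 CPM and made 49.4% of the sum, and the mean over all 37 was 24.8 CPM. None of 73 E10.5 Mk had a count, which allows a share of up to 4.11% at 3 cells of the total, or 4.93% as the upper end of the exact interval. With 3 counts put in for the group, the E10.5 Mk mean was 736-fold lower than that of E8.5 Mk. It was 382-fold lower without the highest E8.5 Mk cell (mean 12.9 CPM), and both medians were 0. Neither fold is a lower limit, since reads carried no molecular identifiers and 1 cell can hold many. The 7 E8.5 Mk cells held 3800 counts. In E10.5 Mac 3 of 25 cells had 8 counts in all (highest 1.56 CPM), and none of the 3 E10.5 EryP had a count.

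**Figure D1:**
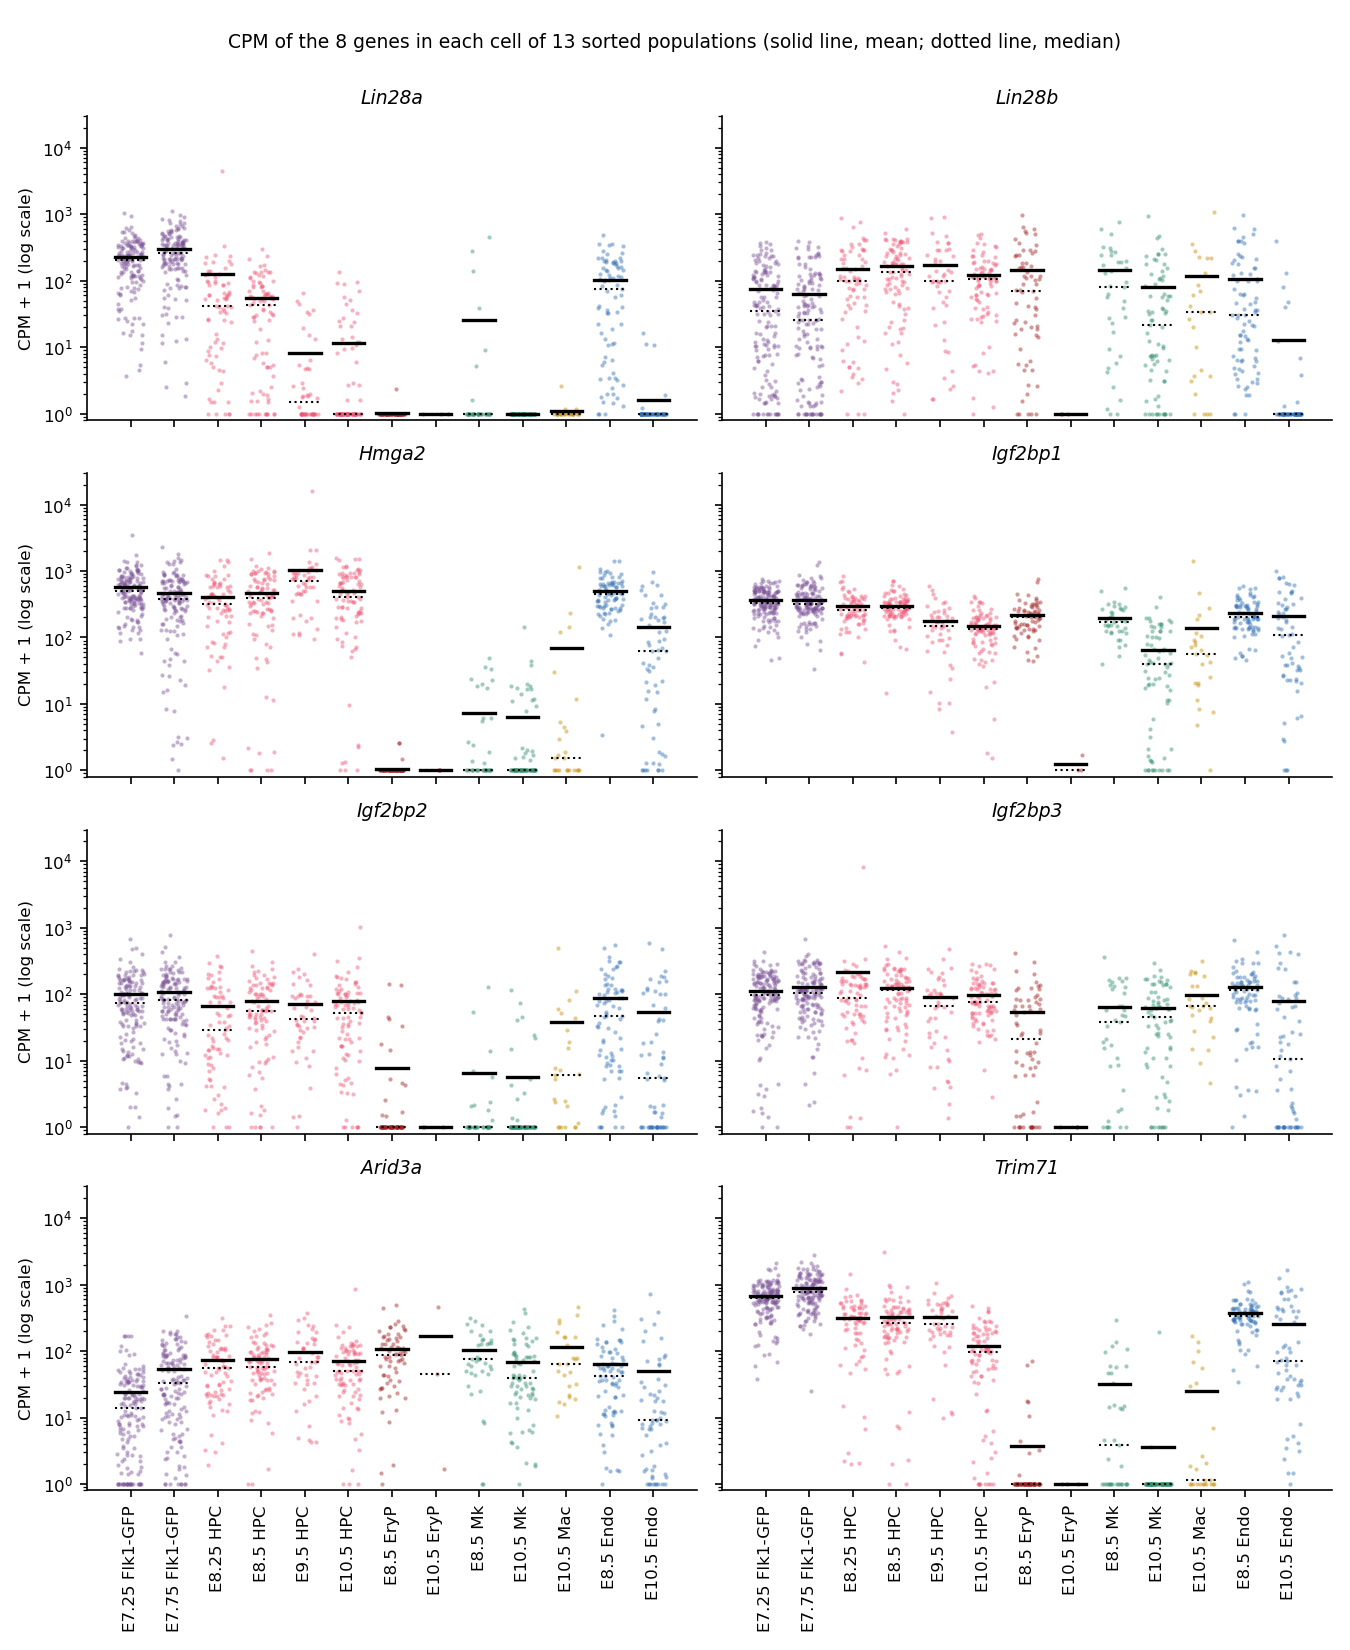
Each panel plots CPM + 1 of 1 gene on a log scale for every cell of the 13 populations on the horizontal axis, with the mean as a solid and the median as a dotted line. *Lin28a* lies near 0 in EryP, E10.5 Mk, E10.5 Mac and E10.5 Endo cells, whereas *Lin28b* and *Igf2bp1* are spread over nearly every population, and *Hmga2*, *Igf2bp2* and *Trim71* share low levels in EryP and Mk.

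*Lin28b*, the paralog on chromosome 10, covered far more of the yolk sac. The mean was 73.6 CPM at E7.25 and 61.8 CPM at E7.75, and in HPCs it was 146.8 CPM at E8.25, 167 CPM at E8.5, 173 CPM at E9.5 and 121.8 CPM at E10.5, where 95.9% to 100% of cells held it. It stayed in the differentiated cells that lacked *Lin28a*: 92.4% of E8.5 EryP (83.2 to 97.5, median 69.9, highest 965, mean 143.8 CPM), 94.6% of E8.5 Mk (mean 142.7 CPM), 84.9% of E10.5 Mk (74.6 to 92.2, median 20.6, highest 926, mean 78.2 CPM) and 84.0% of E10.5 Mac (63.9 to 95.5, mean 115.8 CPM, 37.5% of it from 1 cell). In the order of means, 10 of 13 populations lay between 73.6 and 173 CPM.

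E10.5 Endo was the exception among the populations of useful size. At E8.5, 96.2% of endothelial cells had *Lin28b*, from 0 through a median of 29.2 to 973 CPM (mean 103.8 CPM). At E10.5, 10 of 61 cells had it (16.4%, 8.15 to 28.1), with a median of 0 and a mean of 11.7 CPM, of which 1 cell at 398 CPM made 55.8%. The 3 E10.5 EryP had no count.

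The balance of the paralogs turned over between the mesoderm and the later progenitors. Both were found together in 91.2% of E7.25 and 87.9% of E7.75 cells, and the remaining 13 and 17 cells held *Lin28a* without *Lin28b*. In E10.5 HPCs 29 of 87 cells had both, 57 *Lin28b* alone, 1 neither and none *Lin28a* alone. *Lin28b* alone was the state of 60 of 66 E8.5 EryP, 29 of 37 E8.5 Mk, 62 of 73 E10.5 Mk and 18 of 25 E10.5 Mac. In E8.5 Endo 73 of 79 cells had both, and in E10.5 Endo 48 of 61 had neither.

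Per kilobase of exon, *Lin28a* made 87.4% of the summed mean level of the 2 paralogs at E7.25 and 91.6% at E7.75. Among HPCs this part was 65.9% at E8.25, 42.0% at E8.5, then 8.63% at E9.5 and finally 16.2%. The E8.25 value leaned on 1 cell, which made 49.4% of the *Lin28a* sum. Without division by exon length, the CPM of *Lin28a* was above that of *Lin28b* in 27 of 73 cells at E8.25 (37.0%) and 18 of 89 at E8.5 (20.2%). These 2 shares are not on the scale per kilobase, since *Lin28b* has 9065 exon bases and *Lin28a* 3996. In endothelium *Lin28a* made 69.0% of the summed level per kilobase at E8.5 and 10.4% at E10.5.

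**Figure D2:**
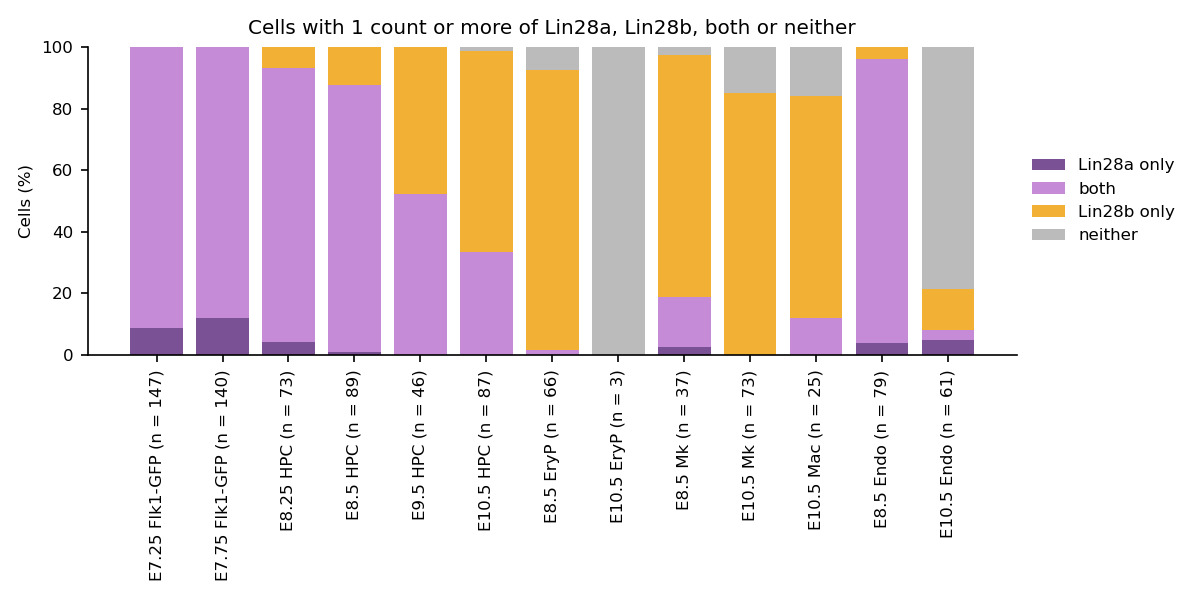
Stacked bars give the percentage of cells of each population (n under each bar) with 1 count or more of *Lin28a* only, both paralogs, *Lin28b* only or neither. Cells with both make 91.2% of E7.25 cells, *Lin28b* only makes 90.9% of E8.5 EryP, and neither makes 78.7% of E10.5 Endo.

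From E8.5 to E10.5 in endothelium, the genes other than *Lin28a* differed by unequal amounts. On the scale of log2 of mean CPM + 1, the ratio of E10.5 to E8.5 was -6.01 for *Lin28a*, the value that chose the list, -3.05 for *Lin28b* and -1.81 for *Hmga2* (502 to 142.1 CPM). It was -0.73 for *Igf2bp2*, -0.69 for *Igf2bp3*, -0.52 for *Trim71*, -0.36 for *Arid3a* and -0.17 for *Igf2bp1*. At 4-fold or more, 2 of 8 genes were lower, *Lin28a* and *Lin28b*, and none higher, beside 4.33% of 9938 tested genes lower and 8.67% higher. The call of *Lin28a* was fixed by the choice of the list, which leaves *Lin28b*. A gene counted as tested when its mean was 10 CPM or more in either population. *Hmga2* joined them at 2-fold (16.4% of all tested genes lower).

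The share of cells was read over the same 2 populations, so for *Lin28a* it restates the choice of the list. Of 3997 genes found in 90% or more of E8.5 Endo cells, the median share at E10.5 was 88.5%. Only 5 of these genes were found in 16.4% or fewer of the E10.5 cells: *Gsta4* (1.64%), *Lin28a* (8.20%), *Gm42467* (13.1%), *F5* (14.8%) and *Lin28b* (16.4%), a set named after the values were seen. *Igf2bp2* (65.6%) and *Igf2bp3* (68.9%) lay in the lower part, with 15.3% and 18.9% of the 3997 genes at or below them. *Arid3a* (85.2%), *Hmga2* (88.5%), *Igf2bp1* (95.1%) and *Trim71* (98.4%) had 45.0% to 86.2% of genes at or below them.

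E10.5 Endo cells also yielded fewer genes per cell. At 840000 counts per cell, the median was 5721 genes in 57 cells (4 shallower cells left out) against 7844 in all 79 E8.5 Endo cells, and unthinned the medians were 6412 and 8437. By the median over cells in place of the mean, 7 of 8 genes were 4-fold or more lower at E10.5, but so were 46.1% of 5053 tested genes. *Trim71*, for example, had a median of 340 and a mean of 367 CPM at E8.5, and a median of 69.2, a mean of 256 and a highest cell of 1633 CPM at E10.5. The part of the fewer genes per cell in these ratios was not tested, and fewer transcripts per cell cannot be told apart from fewer being captured.

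**Figure D3:**
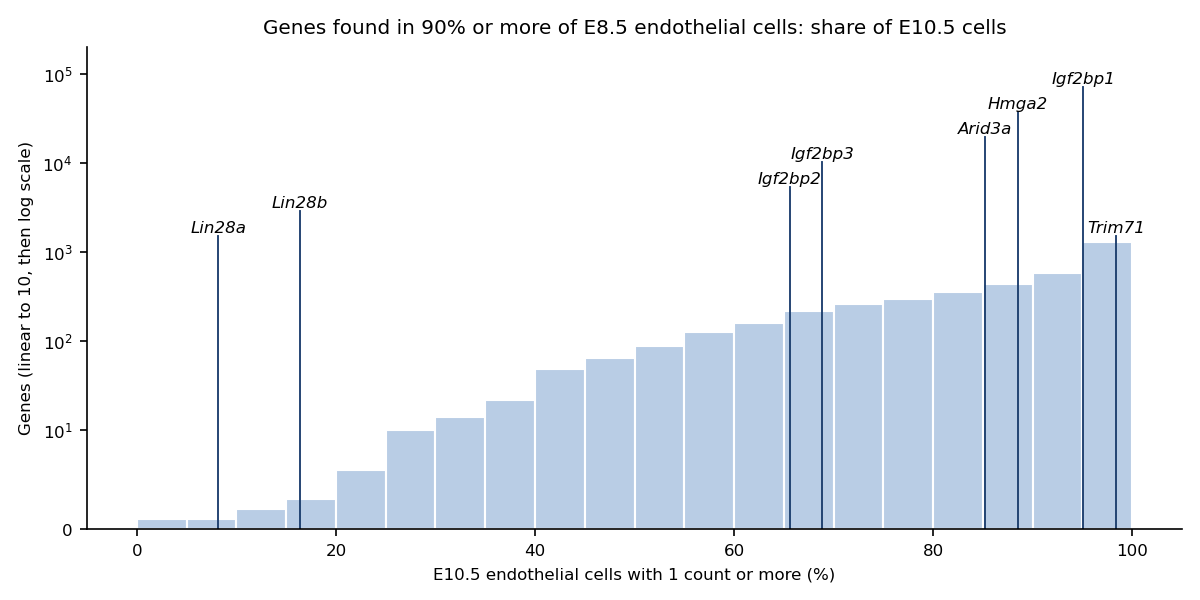
Bars count the 3997 genes found in 90% or more of E8.5 endothelial cells by the percentage of E10.5 endothelial cells that held them, in steps of 5 percentage points, on an axis that is linear to 10 genes and logarithmic above. Labelled lines mark the 8 listed genes (their heights only separate the names), with *Lin28a* at 8.20% and *Lin28b* at 16.4% in the sparse left tail and *Trim71* at 98.4% on the right.

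*Hmga2*, *Igf2bp2* and *Trim71* shared a pattern of mesoderm, HPC and endothelium against erythroid cells and megakaryocytes. *Hmga2* averaged 570 and 460 CPM in the E7.25 and E7.75 mesoderm, 406 to 1031 CPM in HPCs and 502 CPM in E8.5 Endo. The mean of 1031 CPM at E9.5 held 1 cell at 16063 CPM, which made 33.9% of the sum, and the median was 704 CPM against 317, 391 and 407 CPM in the E8.25, E8.5 and E10.5 HPCs. In E8.5 EryP 3 of 66 cells had a count of *Hmga2* (4.55%, 0.947 to 12.7, mean 0.0553 CPM). In Mk the share was 43.2% at E8.5 and 31.5% at E10.5, with means of 6.26 and 5.35 CPM.

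*Trim71* was highest of all in the mesoderm, at 664 CPM at E7.25 (lowest 37.3, median 635, highest 2111) and 878 CPM at E7.75 (24.3, 780 and 2838). It held near 320 CPM in E8.25, E8.5 and E9.5 HPCs (315, 326 and 322) and was 116.5 CPM at E10.5, where the median was 97.4 against 256 CPM at E9.5. E8.5 Mk had it in 21 of 37 cells (56.8%, mean 30.5 CPM) and E10.5 Mk in 2 of 73 (2.74%, 0.334 to 9.55), 98.7% of that level in 1 cell. In E8.5 EryP 9 of 66 cells held it, with a mean of 2.74 CPM.

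*Igf2bp2* averaged 99.1 and 107.5 CPM in the mesoderm, 64.8 to 78.4 CPM in HPCs at every stage and 87.6 CPM in E8.5 Endo. In E8.5 EryP it averaged 6.67 CPM and in Mk 5.60 and 4.71 CPM, with 17.8% to 27.0% of those cells positive. E10.5 Mac lay between, at 37.6 CPM for *Igf2bp2*, 67.7 CPM for *Hmga2* and 23.8 CPM for *Trim71*. Of those 3 means 28.1% to 67.5% came from 1 cell.

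*Igf2bp1* and *Igf2bp3* were found across lineages. *Igf2bp1* was in 100% of mesoderm, HPC, E8.5 EryP, E8.5 Mk and E8.5 Endo cells, and its mean was stepwise lower in HPCs, from 293 and 301 CPM at the first 2 stages to 174 CPM at E9.5 and 145.7 CPM at E10.5. The medians were 262, 280.4, 150.1 and 133.6 CPM. In Mk it was 198 CPM at E8.5 (lowest 38.2, median 171, highest 551) and 63.0 CPM at E10.5 (0, 38.5 and 400), while in Endo the means were 235 and 209 CPM. One of the 3 E10.5 EryP had a single trace of it (0.709 CPM), against 219 CPM in E8.5 EryP.

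*Igf2bp3* lay between 53.1 CPM (E8.5 EryP) and 127.6 CPM (E7.75) in 11 of the 13 populations. The E8.25 HPC mean of 214 CPM rested on 1 cell at 8201 CPM (52.5% of the sum), and the median was 87.9 CPM. E10.5 EryP had no count. Of the 8159 exon bases of *Igf2bp3*, 1529 (18.7%) are shared with *Malsu1* on the opposite strand, and reads of the pair cannot be told apart without strand, so its level is uncertain. The overlaps of *Lin28a*, *Hmga2*, *Trim71* and *Igf2bp1* with other genes cover 0.444% to 5.86% of their exon bases.

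*Arid3a* was the gene with its lowest mean in mesoderm. It stood lowest at E7.25, at 23.1 CPM (lowest 0, median 12.7, highest 169), and was 51.9 CPM at E7.75, 73.1, 75.5, 95.9 and 71.0 CPM in the HPC series, 107.5 CPM in E8.5 EryP, 101.4 CPM in E8.5 Mk and 112.6 CPM in E10.5 Mac. The 2 captures of E7.25 gave 27.1 and 19.2 CPM and those of E7.75 gave 50.9 and 52.5 CPM, so the 2 stages did not overlap by capture. Between these stages no listed gene passed 4-fold (0.9% of all tested genes lower and 1.08% higher), and *Arid3a* alone passed 2-fold (log2 ratio 1.13, beside 4.92% of all tested genes higher and 5.46% lower). E7.25 and E7.75 were on different flow cells, whose part in that difference was not tested. It was the only one of the 8 genes present in all 3 E10.5 EryP, at 0.709, 43.8 and 466 CPM.

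Comparisons with the mesoderm could be made within a flow cell, though genotype, gate and dissociation differed. Over E7.25, no listed gene passed 4-fold in E8.25 HPCs (4.53% of all tested genes lower and 5.73% higher) or in E8.5 Endo (4.14% and 9.67%). The log2 ratio of *Arid3a* over E7.25 was 1.62 in the HPCs and 1.42 in the Endo cells, that of *Trim71* was -1.07 and -0.85, and that of *Lin28a* -0.84 and -1.14. Without the highest cell of each population, the *Lin28a* ratios were -1.76 in the HPCs and -1.17 in the Endo cells. Over E7.75, E9.5 HPCs had 1 of 8 genes 4-fold or more lower and none higher (7.97% and 8.17% of all tested genes), which was *Lin28a* (-5.20). At 2-fold *Trim71* (-1.45) and *Igf2bp1* (-1.08) were lower too and *Lin28b* (1.47) and *Hmga2* (1.16) higher (15.3% and 16.8% of all tested genes), though *Hmga2* was at 0.64 without the highest cell of each population. Over E7.75, E10.5 Endo had 2 of 8 genes 4-fold or more lower (8.19% of all tested genes), *Lin28a* (-7.55) and *Lin28b* (-2.31). The low *Lin28a* of E10.5 Endo was part of the choice of the list. At 2-fold *Trim71* (-1.78), *Hmga2* (-1.69) and *Igf2bp2* (-1.02) were lower there as well (20.4% of all tested genes). The 2 comparisons over each mesoderm stage share that stage.

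The differences from E8.5 to E10.5 were read side by side in the other lineages. In HPCs 1 of 8 genes, *Lin28a*, was 4-fold or more lower at E10.5 (log2 ratio -2.26) and none was higher, beside 2.96% of 9184 tested genes lower and 3.84% higher. At 2-fold (12% of all tested genes lower), *Igf2bp1* (-1.04) and *Trim71* (-1.47) joined it. *Hmga2* (0.11), *Igf2bp2* (-0.02), *Arid3a* (-0.09), *Igf2bp3* (-0.39) and *Lin28b* (-0.45) were within 2-fold. The median over all tested genes was -0.08.

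In Mk 2 of 6 tested genes were 4-fold or more lower at E10.5, *Lin28a* (-4.69 with a pseudocount of 1 CPM, against no count) and *Trim71* (-3.10), beside 3.26% of 8983 tested genes lower and 6.1% higher. *Igf2bp1* was 2-fold or more lower (-1.64, beside 12.7%), and *Lin28b* (-0.86), *Arid3a* (-0.58) and *Igf2bp3* (-0.04) were not. *Hmga2* and *Igf2bp2* were under 10 CPM at both stages. In EryP 3 of 4 tested genes, *Lin28b*, *Igf2bp1* and *Igf2bp3*, were 4-fold or more lower at E10.5, but 40.2% of all tested genes were too (51.3% at 2-fold) and the later group is 3 cells. None of the tested genes was 4-fold higher there (6.82% of all tested genes). No listed gene was 2-fold or more higher at E10.5 in Endo, HPC, Mk or EryP, beside 21.2%, 9.02%, 16.3% and 16% of all tested genes.

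Within the HPC series the step of *Lin28a* lay between E8.5 and E9.5. The log2 ratio was -1.22 from E8.25 to E8.5 (-0.34 without the highest cell of each), -2.73 from E8.5 to E9.5 and 0.47 from E9.5 to E10.5. From E8.25 to E8.5 no listed gene passed 4-fold (0.619% of all tested genes lower and 0.349% higher) and *Lin28a* alone passed 2-fold (3.82% lower, 2.86% higher). From E8.5 to E9.5, where the gate and the flow cell also differ, *Lin28a* was the only 1 of 8 genes 4-fold or more lower and none was higher, beside 3.83% and 4.38% of all tested genes, and *Hmga2* was 2-fold or more higher (1.14, or 0.63 without the highest cell of each, beside 11.5% of all tested genes). From E9.5 to E10.5, on 1 flow cell and with 1 gate, no listed gene passed 4-fold (2.31% of all tested genes lower and 1.66% higher), and *Trim71* (-1.46) and *Hmga2* (-1.03, or -0.50 without the highest cell of each) were 2-fold or more lower (8.73%). These ratios share the E8.5 and E9.5 populations with each other.

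**Figure D4:**
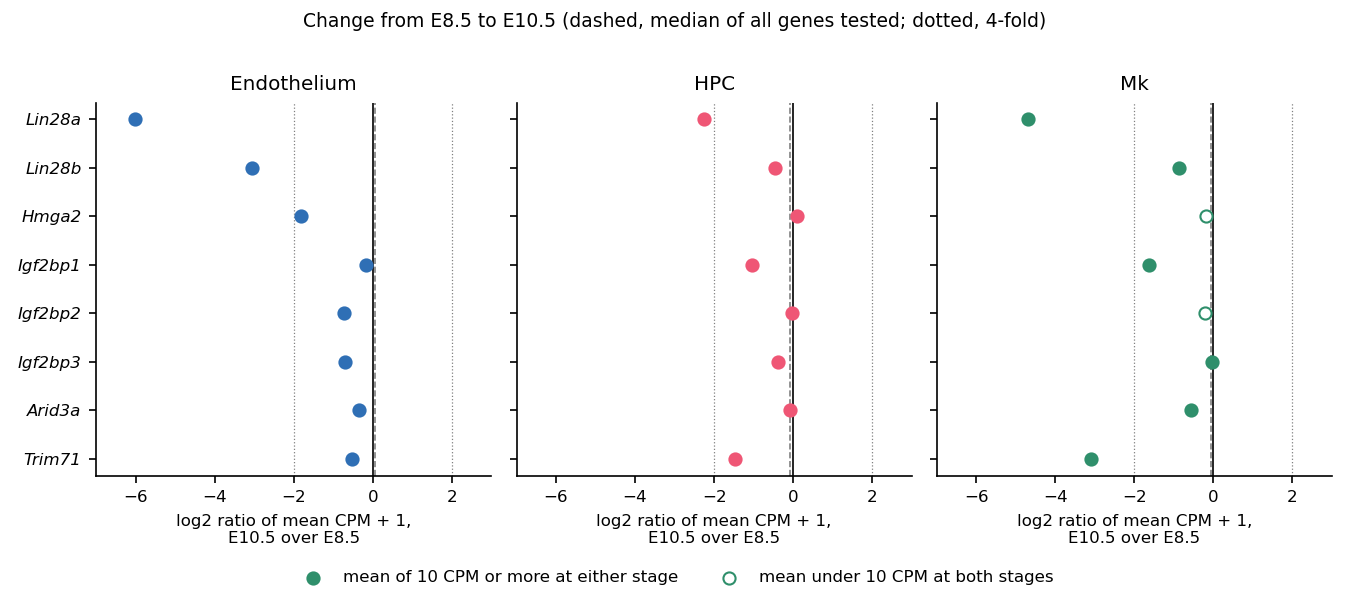
Points give the log2 ratio of mean CPM + 1 at E10.5 over E8.5 for each of the 8 genes in endothelium, HPC and Mk, open where both means were under 10 CPM. Dotted lines mark 4-fold, the dashed line the median of all tested genes. *Lin28a* lies left of the 4-fold line in all 3 lineages, *Lin28b* in endothelium alone and *Trim71* in Mk alone.

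At a single stage, the lineages differed in which genes they held. Against E8.5 HPCs, E8.5 EryP had 4 of 8 genes 4-fold or more lower, beside 9.86% of all tested genes: *Hmga2* (log2 ratio -8.79), *Trim71* (-6.45), *Lin28a* (-5.73) and *Igf2bp2* (-3.37). *Lin28b* (-0.21), *Igf2bp1* (-0.46) and *Arid3a* (0.50) were within 2-fold and *Igf2bp3* was not (-1.22). E8.5 Mk had 3 of 8 lower, beside 4.8% of all tested genes: *Hmga2* (-6.01), *Igf2bp2* (-3.59) and *Trim71* (-3.38), with *Lin28a* at -1.07. Without the highest cell of each, *Lin28a* was at -1.89, and its median was 0 in E8.5 Mk against 42.6 CPM in E8.5 HPCs. E8.5 Endo had none of 8 past 2-fold in either direction, beside 10.4% of all tested genes lower and 17.9% higher (2.87% and 7.39% at 4-fold), and *Lin28a* (0.92) and *Lin28b* (-0.68) differed from E8.5 HPCs in opposite directions. These 3 comparisons share the E8.5 HPCs and lie on 1 flow cell.

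Against E10.5 HPCs, E10.5 Mk had 4 of 8 genes lower at 4-fold (5.67% of all tested genes): *Hmga2* (-6.31), *Trim71* (-5.01), *Igf2bp2* (-3.78) and *Lin28a* (-3.50, against no count). E10.5 Mac had 3 of 8 lower (8.12% of all tested genes): *Lin28a* (-3.40), *Hmga2* (-2.88) and *Trim71* (-2.25). E10.5 Endo had 2 of 8 lower (8.52% of all tested genes), which were *Lin28b* (-3.28) and *Lin28a* (-2.83), while at 2-fold *Hmga2* (-1.82) was also lower (20.4% of all tested genes) and *Trim71* higher (1.13, beside 30.4%). Here too, the low *Lin28a* of E10.5 Endo was part of the choice of the list. Without the highest E10.5 HPC the mean of *Lin28a* there was 8.93 CPM, under the limit of 10 CPM, so that *Lin28a* was no longer tested and its call was lost in all 3 comparisons (2 genes lower in Mac, 3 in Mk and 1 in Endo), with log2 ratios of -3.31 in Mk, -3.29 in Mac and -2.88 in Endo. These 3 share the E10.5 HPCs.

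The number of listed genes per cell followed from these patterns. The median was 8 of 8 genes in the mesoderm, in HPCs up to E9.5 and in E8.5 Endo, 7 in E10.5 HPCs, 6 in E10.5 Mac, 5 in E8.5 Mk and E10.5 Endo, and 4 in E8.5 EryP and E10.5 Mk. All 8 were found in 83.5% of E8.5 Endo cells and in 3.28% of E10.5 Endo cells. A cell with all 8 must hold *Lin28a*, found in 96.2% and 8.20% of these cells. The difference therefore restates the choice of the list in part. The E10.5 Endo cells also yielded fewer genes per cell (median 6412 against 8437). Over the 28 pairs of listed genes, the median Spearman correlation of CPM across cells was 0.05 in E8.5 Endo (79 cells, highest pair 0.24) and 0.09 in E10.5 Endo (61 cells, highest 0.29). Single pairs reached more elsewhere, with highest values of 0.58 in E8.5 HPCs (89 cells), 0.52 in E10.5 HPCs (87), 0.49 in E7.75 mesoderm (140, where the median was 0.18) and 0.49 in E8.25 HPCs (73). The correlation of CPM with the total count of a cell ranged from -0.60 to 0.40 over 95 pairs of gene and population, with a median of -0.03.

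Among *Flk1*-GFP+ mesoderm cells, those in which 4 or more of the 6 genes *Fli1*, *Gata2*, *Hhex*, *Kit*, *Lmo2* and *Tal1* were found (86 of E7.25 beside 61 others, 91 of E7.75 beside 49 others) were taken as haemato-endothelial. The class is a cut through a range, with 23 and 25 cells holding 3 of the 6 genes, and 25 and 20 holding 4. *Lin28a* averaged 194 CPM in the class and 269 CPM in the other cells at E7.25, and 266 and 360 CPM at E7.75. *Hmga2* averaged 499 and 671 CPM at E7.25 and 346 and 673 CPM at E7.75, and *Trim71* 640 and 698 CPM, then 766 and 1086 CPM. *Lin28b* ran the other way, at 83.5 and 59.5 CPM and at 68.4 and 49.6 CPM. *Arid3a* averaged 21.3 and 25.7 CPM, then 41.3 and 71.7 CPM. The 2 captures of a stage differed by up to 1.73-fold in *Lin28a* and by 1.41-fold or less in the other 7 genes. Of the gaps given here, those of *Hmga2* and *Arid3a* at E7.75 exceeded 1.73-fold, *Arid3a* only narrowly. The class was also set from counts thinned to equal depth (70 cells of E7.75 beside 52 others). There *Arid3a* averaged 42.0 and 65.7 CPM, under 1.73-fold, and *Hmga2* 324 and 665 CPM, still above it.

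Over the mean levels of the 13 populations, the genes most like *Lin28a* were *5430403G16Rik* (Pearson r of log2 of mean CPM + 1, 0.913), *Prox1*, a homeobox factor of lymphatic endothelium (0.912), *Spin1*, a reader of histone methylation (0.908), *Greb1* (0.901) and *Hs6st2*, a heparan sulphate sulphotransferase (0.898), among 12323 genes at 10 CPM or more somewhere. The first pair peaked at only 11.3 and 14.6 CPM. By Spearman correlation over the 13 populations that pair ranked 70 and 67, *Spin1* 4, *Greb1* 21 and *Hs6st2* 9. *Spin1* ranged from 94.4 to 405 CPM and led over the 12 populations without the 3 E10.5 EryP (0.907). *Lin28b* was not among the near genes (r = 0.378, rank 3499), and *Trim71* was the nearest of the listed genes (0.795, rank 88).

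*Hmga2* and *Igf2bp2* were each close to the other (r = 0.947, the highest of 12323 genes for *Hmga2*), and *Trim71* had rank 3 for *Hmga2* (0.937). The next genes to *Hmga2*, *Igf2bp2* and *Trim71* were *Fam84b* (0.939), *Soat1* (0.948 with *Igf2bp2* and 0.944 with *Trim71*), which makes cholesterol esters, *Ice1* (0.938) and *Rnf217* (0.945). *Arid3a* was nearest to *Cdk2* (0.884), the S-phase kinase, *Rmnd5b* (0.873) and *Mbnl1* (0.870), a splicing regulator. It correlated negatively with 7 of 7 other listed genes (-0.242 to -0.686), but without the E10.5 EryP, in which its mean is highest, its r with *Lin28b* was 0.519. The nearest genes of *Lin28b* (*Haus8*, *Ctc1* and *Zfp180*, 0.978 to 0.979), *Igf2bp1* (*Impad1*, *Slc12a2* and *Nampt*, 0.985 to 0.988) and *Igf2bp3* (*Ppp4r1*, *Tmem248* and *Appl1*, 0.984 to 0.985) rested on the E10.5 EryP, where they are near 0: over the other 12 populations these values were 0.906 to 0.924, 0.836 to 0.880 and 0.769 to 0.788. The points of these correlations share flow cells.

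Genes of let-7 processing were within 4-fold from E8.5 to E10.5 in Endo, HPCs and Mk. Few genes passed 4-fold at all: 4.33% of all tested genes were lower and 8.67% higher in Endo. The shares were 2.96% and 3.84% in HPCs, and 3.26% and 6.1% in Mk, so none past 4-fold is near the background. In the 3 E10.5 EryP 7 of 13 tested genes of let-7 processing were 4-fold or more lower, beside the 40.2% of all tested genes. Of the 15 genes of let-7 processing (*Drosha*, *Dicer1*, the Argonautes and the uridylyl transferases among them), 14 were tested in Endo, with 2 lower and 3 higher at 2-fold at E10.5, none at 4-fold, beside 16.4% and 21.2% of all tested genes at 2-fold, and with a median log2 ratio of 0.11 beside 0.06 over all genes. The lowest ratio was that of *Ran*, the GTPase of nuclear export (969.7 to 368 CPM, log2 ratio -1.40), and the highest that of *Papd4* (18.5 to 66.4 CPM, 1.79), for which 1 E10.5 cell reached 2582 CPM and the share of cells was 74.7% and then 50.8%. *Dicer1*, which cuts precursors to mature microRNAs, was 73.7 and 121.8 CPM (0.72) in Endo and 80.1 and 57.2 CPM (-0.48) in HPCs. In HPCs and Mk none of 14 was past 2-fold (HPC medians -0.37 for the list and -0.08 for all genes). Of all tested genes, 12% were lower and 9.02% higher at 2-fold in HPCs, and 12.7% and 16.3% in Mk. Within the list *Ran* (-0.84) and *Zcchc6* (0.61) were the extremes in HPCs.

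Among 22 known let-7 targets outside the list, 20 were tested in Endo and 21 in HPCs. In Endo 4 were lower and 2 higher at 2-fold, beside 16.4% and 21.2% of all tested genes, with a median of -0.17. *Hmga1*, the paralog of *Hmga2*, was lowest (140.5 to 20.9 CPM, -2.69), with a share of 100% at E8.5 and 57.4% at E10.5. *Hras* was highest (12.0 to 156.9 CPM, 3.60), through 1 cell at 7531 CPM, and its median was 1.01 and then 0.522 CPM. In HPCs 4 were lower and 2 higher (12% and 9.02% of all genes), from *Irs2*, an insulin receptor substrate (24.9 to 0.620 CPM, -4.00), to *Cdk6*, a cyclin-dependent kinase of progenitors (219 to 885 CPM, 2.01). Of the 21 with an annotated 3′ UTR, 8 held the long let-7 match, beside 4.08% of 12216 genes. These genes were listed as let-7 targets, so the count describes the choice and is no independent support for it.

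Genes of the insulin-like growth factor axis, from which the IGF2BP proteins take their name, were listed together with mRNAs bound by these proteins (*Actb*, *Cd44* and *Myc*). In Endo 8 of 13 tested genes were 2-fold or more higher at E10.5 and 2 lower, beside 21.2% and 16.4% of all genes. *Actb* and *Cd44* were among the 8 and *Myc* among the 2. *Igf2*, the fetal growth factor, was 382 CPM at E8.5 (lowest 37.8, median 359, highest 1108) and 2991 CPM at E10.5 (28.4, 2350 and 13990), a log2 ratio of 2.97. *H19*, the noncoding neighbour of *Igf2*, was 541 CPM (36.3, 483 and 2260) and then 4469 CPM (32.7, 3115 and 18208), a log2 ratio of 3.04. Both were found in every Endo cell of both stages, and the 2 stages overlapped over cells. *Igfbp7* had the highest ratio (0.515 to 45.0 CPM, 4.93) and *Igf1* the lowest (1468 to 489 CPM, -1.58).

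In HPCs 5 of 11 tested genes were 2-fold or more lower and 2, *Cd44* and *Myc*, higher, beside 12% and 9.02% of all tested genes, with a median of -0.92. *Igfbp5* was 58.8 CPM in 60.7% of E8.5 cells and 0.555 CPM in 1 of 87 E10.5 cells (1.15%), and *Cd44*, a hyaluronan receptor, was the highest (136.8 to 343 CPM, 1.32). *Igf2* (55.4 and 49.5 CPM, -0.16) and *H19* (182 and 95.8 CPM, -0.92) were within 2-fold. Of the paralogs, *Arid3b* was 39.5 and 58.4 CPM in Endo (0.55) and 38.3 and 26.8 CPM in HPCs (-0.50). *Trim3* (13.2 to 28.7 CPM, 1.07) was the highest in Endo, and in HPCs the 3 tested paralogs were within 2-fold, *Hmga1* at -0.81 among them.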

How the data were processed

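Cells of 13 sorted yolk sac populations were caught on the Fluidigm C1, and libraries were made with Nextera XT. The deposited count values are reads per gene, made by the authors with Rsubread and featureCounts on the GRCm38 annotation of Ensembl 84. The deposited signal values are CPM, which the authors derived with scran size factors for cells that passed scater quality limits. Within a cell the CPM of a gene is its count times 1 factor. Reads carried no molecular identifiers. The authors imaged the capture sites, and no doublet caller was run here. No pair of cells held identical values.

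A gene counted as found in a cell at 1 count or more, with exact (Clopper-Pearson) 95% intervals. Levels are means of CPM over cells, ratios are log2 of mean CPM + 1, and 4-fold over genes at 10 CPM or more in either population was the call, with 2-fold beside it. For the folds of *Lin28a* in Mk by stage, the group without counts was set to 3 counts. The balance of the mean levels of *Lin28a* and *Lin28b* was taken per kilobase of exon (GENCODE M21). Cells with more *Lin28a* than *Lin28b* were counted by CPM alone. UTR sequences came from GENCODE M21 transcripts, mature microRNAs from RefSeq, and UTRs of similar length were those of 0.8 to 1.25 times the length. No test between populations was made, since each is 1 sample and cells are not replicates.

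The listed genes and gene lists were chosen with earlier results of these data known. Besides the 8 genes, those named are the 5 genes (3 for genes other than *Lin28a*) with the highest correlation over populations, the highest and lowest ratio of each gene list in Endo and HPCs from E8.5 to E10.5, and *Igf2*, *H19*, *Hmga1*, *Arid3b* and *Dicer1*. On data simulated for E10.5 over E8.5 Endo with 15967 genes, 200 of 200 changed genes came within 0.5 of the set log2 ratio. In them, 97 of 100 lowered, 100 of 100 raised and 0 of 8451 unchanged genes were called. These counts describe the calculation alone. The share of wrong calls in the measured cells, with single high cells and fewer genes per Endo cell at E10.5, was not tested. The tools were Python (3.11.15), pandas (2.3.3), numpy (2.4.6), matplotlib (3.10.9) and scipy (1.17.1).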

Additional observations from a re-analysis of the deposited data

Results flagged for a closer look

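Counts of listed genes also stood in cells that no comparison used, those that did not pass the filter of the authors. Values are named here where the gene had over 3 counts and a pooled level more than 4 times the mean of the passed cells of its population, or where the population was E10.5 EryP, of which 3 cells passed. *Lin28a* had 40 counts in 2 of 19 E10.5 Endo cells (pooled 4.45 CPM, against a mean of 0.595 CPM in the 61 that passed). *Igf2bp2* had 16641 counts in 5 of 6 E8.25 HPCs (5866 against 64.8 CPM) and 5542 counts in 3 of 16 E10.5 Mac (228 against 37.6 CPM). *Arid3a* had 1287 counts in 11 of 12 E7.25 cells (116.98 against 23.1 CPM) and 1963 counts in the 1 E8.5 HPC (1536 against 75.5 CPM). In the 22 E10.5 EryP, *Arid3a* had 525 counts in 13 cells, *Igf2bp3* 301 counts in 3 and *Igf2bp1* 5 counts in 5, and the other 5 genes had 1 count or none each.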

How the results depend on the processing

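No paired analysis was possible because the cell numbers only name cells and no test was made. No capture could be left out of the comparisons counted here, which hold 1 capture per population. The number of genes at least 4-fold lower changed as follows. With medians over cells it was 7 in place of 2 in Endo from E8.5 to E10.5 (46.1% of all tested genes). In Mk it was 1 in place of 2 (9.7% of all tested genes). That 1 was *Igf2bp1* (-2.13), as *Lin28a* and *Trim71* had medians under 10 CPM at both stages. In E10.5 Endo over E10.5 HPC it was 5 in place of 2, and the share of all genes was not computed by medians there. E10.5 Endo cells yielded fewer genes per cell than E10.5 HPCs (median 6412 against 9165). With a pseudocount of 10 CPM the number of genes lower was 0 for Mk and 0 for HPC by stage, 1 for E10.5 Endo over HPC and 1 in place of 3 for E10.5 Mac over HPC. Over genes at 100 CPM or more it was 0 for Mk and HPC by stage, 2 in place of 4 for E8.5 EryP and for E10.5 Mk over HPC, and 1 for E10.5 Endo over HPC. At 2-fold it was 3 in place of 1 in HPC by stage, and 13 of 36 counts over all comparisons, lower and higher, moved by over 1.5 times (changes from 0 included). Without the highest cell, an alternative chosen after seeing the data, E10.5 Endo, Mk and Mac over HPC had 1, 3 and 2, since *Lin28a* was then under 10 CPM in both groups. Fewer genes are tested by construction at 100 CPM, and for the others the cause was not tested. None of the 28 differences past 4-fold changed sign under any alternative, 4 (*Lin28a*, by medians of 0 in both groups) came to 0, and 159 of 174 such values stayed at -2 or below on the log2 scale. With CPM of the plain total count no ratio moved by more than 1.5-fold, and 3 did with counts thinned to 840000. With Spearman in place of Pearson, 16 of 26 correlations with the nearest genes moved past the limit set for them, and none changed sign. The number of genes with a let-7 match was 8 under each search. Depth limits low levels: at a minimum of 10 counts 49 shares left their interval, and after thinning 4 did.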
